A study of Mus musculus with 18 samples.

Results

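The lysosomal hydrolase, membrane and V-ATPase genes were followed in the livers of 18 male C57BL/6J mice. They are 53 genes taken by symbol from the 55487 genes of the raw count table. They comprise 5 genes of the lysosomal membrane, 10 proteases, 10 glycosidases, 4 sulfatases, 5 sphingolipid and other lipid hydrolases, progranulin (Grn), the 3 MiT/TFE transcription factors Tfeb, Tfe3 and Mitf, 6 subunits of the V0 sector and 7 of the V1 sector of the V-ATPase, the V-ATPase accessory gene Atp6ap1, and the autophagy receptor gene Sqstm1. Membership was set by symbol and by no threshold on measured values, although the list was chosen with earlier results of these data known. All 53 had enough counts to be tested in every comparison.

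All mice had received an adeno-associated virus (AAV8) whose cargo was driven by TBG, a hepatocyte promoter, so that controls carried the vector too. CON-GFP mice (n = 6) received GFP and a purified control diet. FPC-GFP mice (n = 6) received GFP and the FPC diet, which is enriched in fructose, palmitate and cholesterol and was given with sugar in the drinking water. FPC-LIPA mice (n = 6) received the FPC diet and human LIPA, the gene of lysosomal acid lipase, which frees cholesterol and fatty acids from esters inside the lysosome. The virus was given a week before the diet, which lasted 16 weeks, and livers were taken after a short fast, with 1 library per mouse. The question was how the diet, and LIPA on top of the diet, changed the liver transcriptome.

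Lysosomes are acidic organelles that digest proteins, glycans and lipids delivered by endocytosis and autophagy. Their acid is made by the V-ATPase, a rotary pump whose V1 sector in the cytosol hydrolyses ATP and whose V0 sector in the membrane moves protons. Many lysosomal genes carry an E-box of the CLEAR type (Coordinated Lysosomal Expression and Regulation) near their start, to which TFEB, TFE3 and MITF can bind. In liver, hepatocytes hold many lysosomes, and resident macrophages (Kupffer cells) are rich in them.

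Because this motif is the feature the members are best known to share, the promoter windows were read first. RefSeq windows of the mouse assembly GRCm38.p6, from 250 bases before to 50 bases after a gene's start, were found for 46 of the 53 members. The motif CACGTG, which reads the same on both strands, was present in 16 of these 46 members (34.8%), against 8.09% of 27025 genes with a window. The longer motif TCACGTGA, which contains the shorter one and also reads the same on both strands, was present in 8 members (17.4%) against 1.12% of genes. The motif was chosen because lysosomal genes are known to carry it, so its higher share among the members is not an independent result. The genes compared were not matched for expression or base composition. A match describes the letters in the window and is not evidence of binding. The stretches that follow, of 30 bases each and written 5′ to 3′ on the strand of the gene, hold the motif in capitals. They show the 8 members with the longer motif, with Lamp1 for its repeated shorter motif and Gaa, Arsa and Atp6v0b because, of the called members with the shorter motif only, they had the largest changes in the comparisons below (Glb1, Sgsh and Ctsl also carry it and were called with smaller changes):
Atp6v0d1 at chr8:105566050-105566079, minus strand: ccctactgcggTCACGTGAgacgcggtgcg
Atp6v0e at chr17:26676387-26676416, plus strand: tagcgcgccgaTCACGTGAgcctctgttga
Atp6v1a at chr16:44139373-44139402, minus strand: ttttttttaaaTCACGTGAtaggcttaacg
Cln3 at chr7:126583340-126583369, minus strand: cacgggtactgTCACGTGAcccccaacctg
Ctsa at chr2:164833749-164833778, plus strand: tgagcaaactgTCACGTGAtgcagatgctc
Ctsd at chr7:142387908-142387937, minus strand: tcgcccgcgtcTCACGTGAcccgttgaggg
Gla at chrX:134601182-134601211, minus strand: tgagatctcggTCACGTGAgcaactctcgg
Mcoln1 at chr8:3500462-3500491, plus strand: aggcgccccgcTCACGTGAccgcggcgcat
Lamp1 at chr8:13159088-13159117, plus strand: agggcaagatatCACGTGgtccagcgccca
Lamp1 at chr8:13159121-13159150, plus strand: gatgccgactggCACGTGaccacatcacgt
Gaa at chr11:119267811-119267840, plus strand: tttctgtgcgatCACGTGtttgactctgac
Arsa at chr15:89477423-89477452, minus strand: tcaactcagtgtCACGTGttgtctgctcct
Atp6v0b at chr4:117887348-117887377, minus strand: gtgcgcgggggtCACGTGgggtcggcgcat

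Total counts per library were between 16632146 and 37739301. In 3 of the 6 FPC-LIPA libraries, of mice 36, 37 and 39, genes of cytosolic ribosomal proteins took 6.33%, 7.97% and 8.02% of counts, against 2.1% to 2.86% in FPC-LIPA 31, 33 and 34, 1.39% to 1.75% in FPC-GFP and 1.70% to 2.47% in CON-GFP. These 3 libraries also stood apart in many members, so each call of a member with FPC-LIPA is given with and without them. Mouse 37 is written 37b in the title of its sample and 37 in its description, and the sample sheet number of its library lies far above those of the other 17, which run from 55 to 80. Mouse Lipa was at 247 ± 33.7 CPM (library-size-normalised counts, TMM-scaled; mean ± SD, n = 6) in CON-GFP, 340 ± 61.4 in FPC-GFP and 293 ± 51.2 in FPC-LIPA, and its log2 fold change in FPC-LIPA against FPC-GFP was -0.16 (adjusted p = 0.513). The table counts mouse genes, so these values do not check the human LIPA transgene. Albumin (Alb), the hepatocyte marker, was between 31420 and 72020 CPM in all 18 libraries.

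Per length, in TPM (counts per exon length, scaled to the same total in each library), the highest members in CON-GFP were Lamp1, the most abundant glycoprotein of the lysosomal membrane, at 603 ± 65.04 TPM (SD, n = 6), the protease gene Ctsz at 420 and Psap, whose product is cut into the saposins that help sphingolipid hydrolases, at 285. Next came the cathepsin genes Ctsd at 203, Ctsb at 181, Ctsl at 178 and Ctsh at 157 TPM, with Sqstm1 at 175 between the last of these. The lowest were Mitf at 1.01, Galc at 1.04, Ctsk at 1.30 and Atp6v0d2 at 1.79 TPM. V-ATPase levels spanned a wide range, from 132 TPM for Atp6v1f and 113 for Atp6v0b down to 7.62 for Atp6v0a1 and 1.79 for Atp6v0d2.

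The first comparison asked what the FPC diet did to these genes. In FPC-GFP against CON-GFP, 13 of the 53 members rose and 6 fell at an adjusted p under 0.05, against 12.9% and 10.9% of the 14307 genes tested. The member counts are 24.5% and 11.3%. Sulfatases, several glycosidases, the saposin gene Psap, Tfe3 and Sqstm1 were among those that rose, and Lamp2, 3 cathepsins and 2 subunits of the V0 sector were those that fell. At a change of at least 2-fold, 1 member rose and 1 fell (4.76% and 2.44% of all genes). The groups did not overlap for 5 members that were higher and 1 that was lower (5.61% and 4.82% of all genes). The median log2 fold change of the members was 0.08, against 0.01 over all genes tested.

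**Figure D1:**
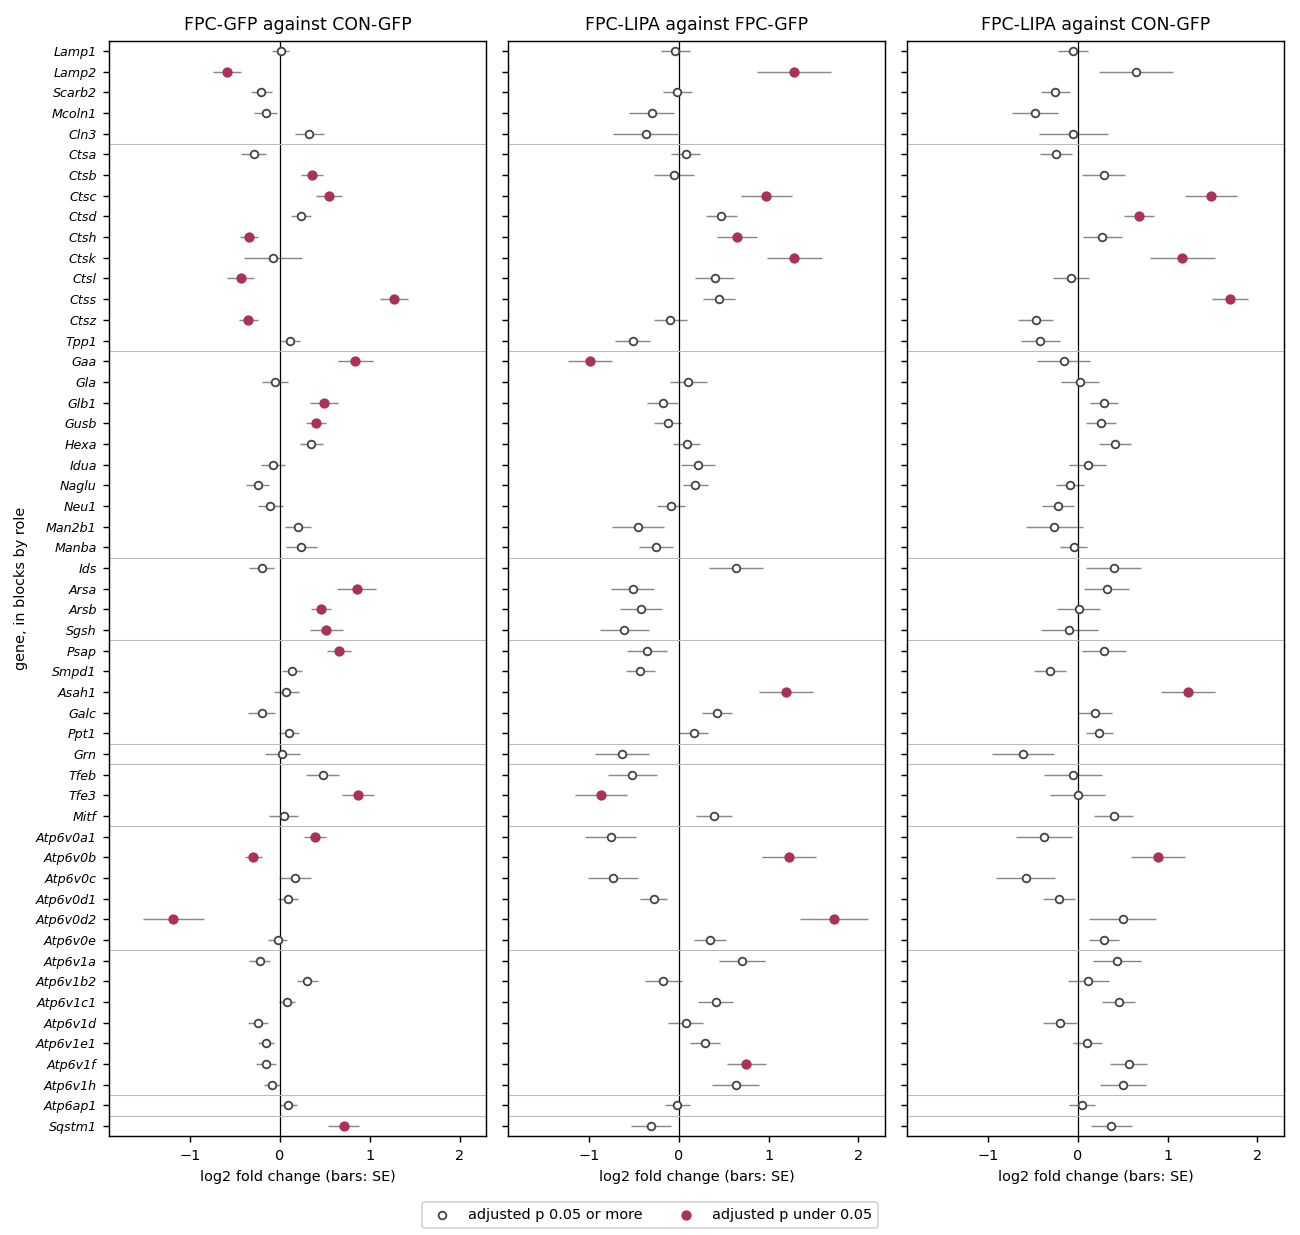
Log2 fold changes of the 53 members in the 3 comparisons (points, with bars of 1 SE, n = 6 mice per group), in blocks by role. Filled points passed an adjusted p under 0.05, and they number 19 in FPC-GFP against CON-GFP, 10 in FPC-LIPA against FPC-GFP and 6 in FPC-LIPA against CON-GFP.

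Of the 10 proteases, 3 rose and 3 fell with the diet. Ctss (chr3:95526786-95556403, plus strand, GRCm38), the cathepsin S gene known from antigen-presenting cells, had the largest rise of any member. It ranged from 15.4 to 29.2 CPM in CON-GFP (median 20.8) and from 38.8 to 66.1 in FPC-GFP (median 49.5). The groups did not overlap, and the log2 fold change was 1.27 (SE 0.16, adjusted p = 0.0002). Ctsc, whose product activates serine proteases of leukocytes, rose by 0.55 on the log2 scale (SE 0.15, adjusted p = 0.015). Ctsb, the cathepsin gene with the highest mean CPM over all libraries, rose by 0.36 (adjusted p = 0.041). The proteases that fell were Ctsl by 0.44, Ctsz by 0.35 and Ctsh by 0.35 on the log2 scale, with adjusted p of 0.0485, 0.0284 and 0.0283. Of these, only Ctsh had groups that did not overlap, with 309 to 383 CPM in CON-GFP and 230 to 299 in FPC-GFP. Ctsk, the collagen-degrading cathepsin of osteoclasts, was near 1 CPM in both groups (log2 fold change -0.08, adjusted p = 0.878).

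Of the 10 glycosidases, 3 rose and none fell. Gaa (chr11:119267887-119285454, plus strand), the acid α-glucosidase that degrades lysosomal glycogen, ranged from 28.3 to 75.0 CPM in CON-GFP (median 56.7) and from 85.3 to 116 in FPC-GFP (median 92.4). Every FPC-GFP liver was above every CON-GFP liver, and Gaa rose by 0.84 on the log2 scale (SE 0.19, adjusted p = 0.00673). The β-galactosidase gene Glb1 rose by 0.49 (adjusted p = 0.0358) and the β-glucuronidase gene Gusb by 0.40 (adjusted p = 0.0172). Man2b1, the lysosomal α-mannosidase gene and the most highly counted of the glycosidases, had a log2 fold change of 0.21 (adjusted p = 0.31).

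Of the 4 sulfatases, which remove sulfate from glycolipids and glycosaminoglycans, 3 rose. Arsa, which acts on sulfatide, ranged from 27.0 to 70.2 CPM in CON-GFP (median 48.6) and from 56.9 to 114 in FPC-GFP (median 92.2). The groups overlapped through the lowest FPC-GFP livers, and the log2 fold change was 0.86 (SE 0.22, adjusted p = 0.0114). Arsb rose by 0.46 (adjusted p = 0.00897) and Sgsh by 0.52 (adjusted p = 0.0481), while Ids had a log2 fold change of -0.20 (adjusted p = 0.287). Exons of Arsb, Sgsh and Arsa share 32.3%, 21.6% and 18.8% of their length with a gene on the opposite strand, as do 26.8% of Ctsl, 17.3% of Sqstm1, 12.8% of Ctsb and 11.8% of Atp6v0b; whether counting used the strand is not stated, so reads of these pairs cannot be told apart.

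Among the lipid hydrolases, Psap (chr10:60277627-60302597, plus strand) rose. Its level was 282 to 485 CPM in CON-GFP (median 399) and 532 to 674 in FPC-GFP (median 607), with no overlap and a rise of 0.66 on the log2 scale (SE 0.13, adjusted p = 0.00306). The acid sphingomyelinase gene Smpd1, the acid ceramidase gene Asah1, the galactosylceramidase gene Galc and Ppt1, which removes palmitate from proteins, had log2 fold changes between -0.20 and 0.14, and none passed the test. Grn, a secreted and lysosomal glycoprotein that binds prosaposin, had a log2 fold change of 0.03 (adjusted p = 0.929).

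Of the lysosomal membrane genes, Lamp2 fell by 0.59 on the log2 scale (SE 0.16, adjusted p = 0.014). It encodes a membrane glycoprotein needed for fusion of autophagosomes with lysosomes, and was at 448 to 842 CPM in CON-GFP (median 575) and at 337 to 462 in FPC-GFP (median 385). The groups overlapped slightly. Lamp1 was at 799 ± 53.0 CPM (SD, n = 6) in CON-GFP and 802 ± 41.7 in FPC-GFP, with a log2 fold change of 0.01 (adjusted p = 0.954).

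Of the transcription factors, Tfe3 (chrX:7762560-7775202, plus strand) rose with the diet. Its level was 10.6 to 23.9 CPM in CON-GFP (median 18.7) and 26.6 to 49.1 in FPC-GFP (median 30.6), without overlap, and the rise was 0.87 on the log2 scale (SE 0.18, adjusted p = 0.00381). Tfeb was at 4.09 to 11.4 CPM in CON-GFP (median 8.25) and at 9.31 to 12.1 in FPC-GFP (median 11.6), and its log2 fold change of 0.47 did not pass the test (adjusted p = 0.0777). Mitf had a log2 fold change of 0.04 (adjusted p = 0.875). Sqstm1, whose product p62 carries ubiquitinated cargo into autophagosomes and is itself degraded there, ranged from 194 to 359 CPM in CON-GFP (median 302) and from 337 to 616 in FPC-GFP (median 455). It rose by 0.71 on the log2 scale (SE 0.17, adjusted p = 0.00898), and the groups overlapped at one end.

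Within the V-ATPase, the V0 sector changed in both directions and no subunit of the V1 sector passed the test with the diet (0 of 7, log2 fold changes from -0.25 to 0.31 by edgeR's quasi-likelihood test). Atp6v0a1, the a1 subunit that lines the proton path, rose by 0.39 (adjusted p = 0.035), with 17.2 to 31.0 CPM in CON-GFP and 31.2 to 32.5 in FPC-GFP. Atp6v0b, a subunit of the membrane ring, fell by 0.30 (adjusted p = 0.031). Atp6v0d2 (chr4:19876841-19922605, minus strand), the d2 isoform known from osteoclasts and macrophages, fell by 1.19 (SE 0.34, adjusted p = 0.0216), from 1.11 to 3.96 CPM in CON-GFP (median 2.46) to 0.481 to 1.52 in FPC-GFP (median 1.13). The ranges overlapped. These values rest on few reads, with 29 to 81 counts per CON-GFP library and 12 to 49 per FPC-GFP library. Its widely expressed paralog Atp6v0d1 was at 69.4 ± 12.0 CPM (SD, n = 6) in CON-GFP and 73.4 ± 3.79 in FPC-GFP, with a log2 fold change of 0.09 (adjusted p = 0.597). Atp6v1e1, the stalk subunit with the highest count among the V1 genes, and Atp6ap1 had log2 fold changes of -0.15 and 0.09, with adjusted p of 0.227 and 0.498.

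At an adjusted p under 0.05, Ctss, Gaa, Psap, Tfe3 and Sqstm1 passed in all 23 alternative fits of this comparison. Stricter thresholds are not among these fits, and of these genes only Ctss reached 2-fold. The direction of the split depended on scaling: when libraries were scaled by size only, the median of all genes moved to 0.21 and 19 members were higher and 1 was lower, so that Lamp2 (-0.38, adjusted p = 0.0689), Ctsl (-0.25), Ctsz (-0.16), Ctsh (-0.15) and Atp6v0b (-0.10) no longer passed. That scaling called 28.5% of all genes, against 23.8% in the main fit. With trends on gene length and GC content removed, 8 members were higher and 8 lower, and 24.2% of all genes were called. With all 18 libraries in one fit, 6 members were called, all higher, and 9.04% of all genes were called. Among libraries with sample sheet numbers from 55 to 68, 6 were higher and 2 lower, and all of these were among the 19. In that subset 13.6% of all genes were called. Calls of the smaller changes were also lost when single livers were left out, while their log2 fold changes kept their sign. In those fits 17.1% to 24.7% of all genes were called. The Sgsh call was lost without any single FPC-GFP library or any one of CON-GFP 1, 2, 3 and 6, with log2 fold changes of 0.41 to 0.62 over all libraries left out in turn. Those of Glb1 (0.43 to 0.60), Atp6v0a1 (0.31 to 0.47) and Ctsb (0.30 to 0.41) were each lost without CON-GFP 1, 2 or 6 or FPC-GFP 12, 13, 16 or 19; that of Glb1 was lost too without CON-GFP 3 or FPC-GFP 20, that of Atp6v0a1 without FPC-GFP 11 or 20, and that of Ctsb without CON-GFP 3 or 7. Of the members that fell, the Ctsl call (-0.57 to -0.38) was lost without CON-GFP 1, 6, 7 or 8 or FPC-GFP 12, 13, 16, 19 or 20, and the Ctsz call (-0.40 to -0.32) without CON-GFP 1 or 8 or FPC-GFP 11, 12, 13 or 19. The Atp6v0b call (-0.34 to -0.27) was lost without CON-GFP 1, 3 or 6 or FPC-GFP 12, 19 or 20, the Ctsh call (-0.38 to -0.30) without CON-GFP 1 or 6 or FPC-GFP 11 or 19, and the Atp6v0d2 call (-1.34 to -1.001) without CON-GFP 2.

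**Figure D2:**
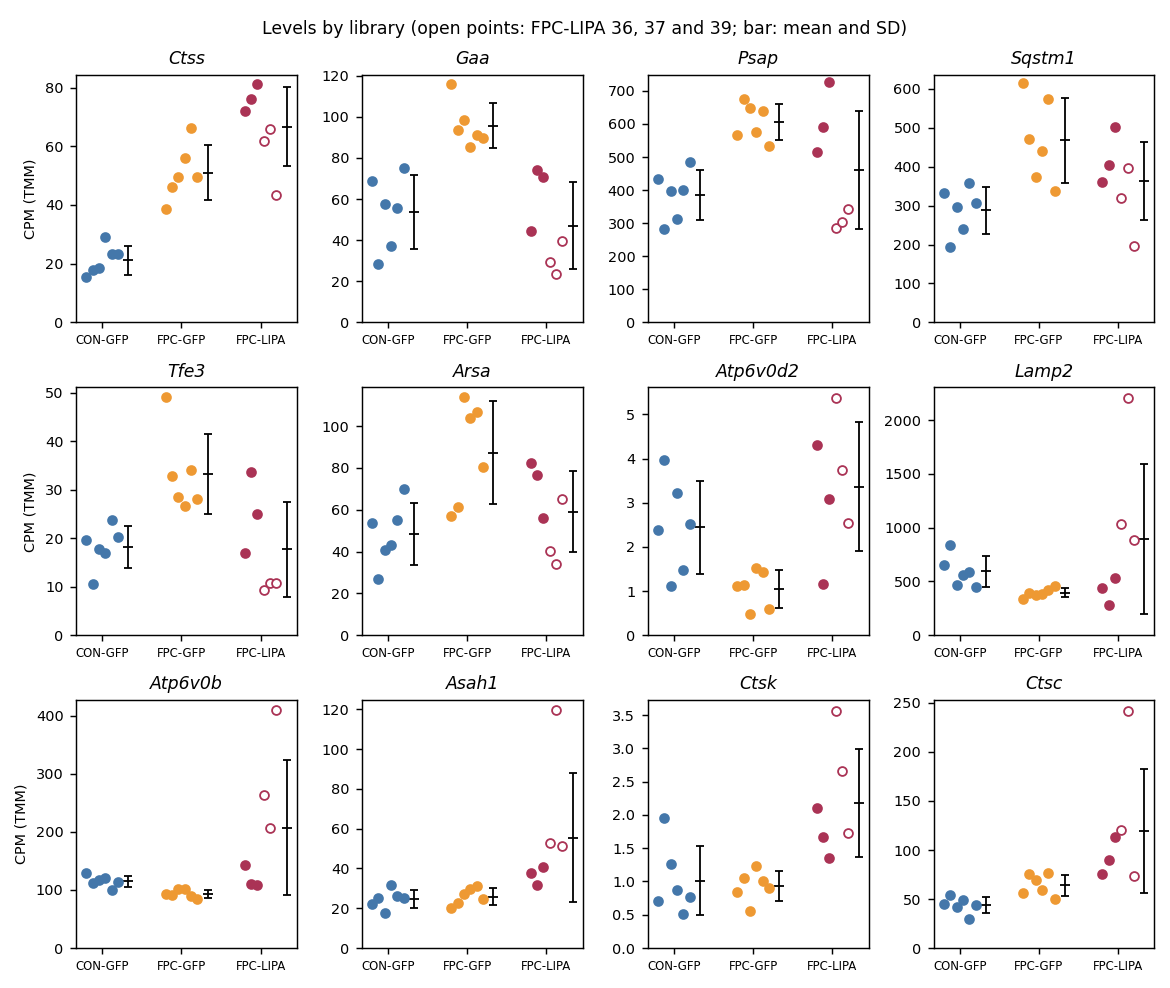
CPM of 12 members in each of the 18 libraries (points), with the mean and SD of each group beside them (n = 6); open points are FPC-LIPA 36, 37 and 39. All FPC-GFP points of Ctss, Gaa, Psap and Tfe3 lie above all CON-GFP points, and the highest FPC-LIPA values of Lamp2, Atp6v0b, Asah1, Ctsk and Ctsc were in the open points.

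The second comparison asked what LIPA changed in mice on the FPC diet, and shares the FPC-GFP libraries with the first. In FPC-LIPA against FPC-GFP, 8 members rose and 2 fell, which is 15.1% and 3.77% of the members, against 14.4% and 6.87% of the 14620 genes tested. At 2-fold, 5 members were higher and 0 lower, against 10.3% and 1.11% of all genes; both members that fell did so by less than 2-fold at adjusted p under 0.05. The groups did not overlap for 4 members that were higher and 1 that was lower (3.36% and 4.30% of all genes). The median log2 fold change of the members was -0.02, and 0.04 over all genes. Without FPC-LIPA 36, 37 and 39, with 3 against 6 livers, no member was called by edgeR, against 1.22% of all genes. In that fit 11 members had an unadjusted p under 0.05 and DESeq2 called 3. No share of all genes was computed for these counts.

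Atp6v0d2 had the largest rise, of 1.73 on the log2 scale (SE 0.38, adjusted p = 0.0142). Its level was 0.481 to 1.52 CPM in FPC-GFP, and 4.30, 1.15 and 3.08 CPM in FPC-LIPA 31, 33 and 34 and 5.37, 3.73 and 2.55 in FPC-LIPA 36, 37 and 39. All but FPC-LIPA 33 were above the FPC-GFP range. The log2 fold change without FPC-LIPA 36, 37 and 39 was 1.43 (adjusted p = 0.107). Atp6v0d1 had a log2 fold change of -0.28 (adjusted p = 0.177), so the isoforms of the d subunit differed in their calls, although the difference between them was not tested.

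Ctsk rose by 1.29 (SE 0.31, adjusted p = 0.0183). It was at 0.549 to 1.24 CPM in FPC-GFP and at 1.35 to 3.57 in FPC-LIPA (median 1.92), with no overlap, from 16 to 40 counts per FPC-GFP library and 37 to 123 per FPC-LIPA library. Without FPC-LIPA 36, 37 and 39 it was 0.88 (adjusted p = 0.145). Ctsk and Atp6v0d2 are both known from osteoclasts, and of 4 other osteoclast markers 1 was tested and not called. Calcr had no count in any library, and the list summed to 1.05 to 5.29 CPM in FPC-GFP and 0.287 to 1.97 in FPC-LIPA.

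Lamp2 rose by 1.29 (SE 0.41, adjusted p = 0.04), and this rested on the libraries that stood apart. Its level was 441, 276 and 535 CPM in FPC-LIPA 31, 33 and 34, close to the FPC-GFP range of 337 to 462, and 1030, 2203 and 887 CPM in FPC-LIPA 36, 37 and 39. Without these 3 the log2 fold change was 0.09 (adjusted p = 0.831). The call was also lost without any single FPC-GFP library or any one of FPC-LIPA 36, 37 and 39 (log2 fold changes of 0.73 to 1.47 over all 12 libraries left out in turn), and it was 0.42 (adjusted p = 0.194) with the GC trend removed.

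Atp6v0b rose by 1.23 (SE 0.30, adjusted p = 0.0195). It was at 84.0 to 101 CPM in FPC-GFP, at 143, 110 and 109 in FPC-LIPA 31, 33 and 34 and at 263, 207 and 410 in FPC-LIPA 36, 37 and 39. All FPC-LIPA livers were above all FPC-GFP livers, and the log2 fold change without the 3 libraries was 0.38 (adjusted p = 0.134). Asah1 (chr8:41340197-41374773, minus strand), which cleaves ceramide, rose by 1.19 (SE 0.30, adjusted p = 0.0205). It was at 20.2 to 31.0 CPM in FPC-GFP, at 37.5, 31.6 and 40.8 in FPC-LIPA 31, 33 and 34 and at 52.8, 119 and 51.1 in FPC-LIPA 36, 37 and 39, again without overlap. Without the 3 libraries its log2 fold change was 0.51 (adjusted p = 0.11).

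The other members that rose were Ctsc by 0.97 (adjusted p = 0.0315), Atp6v1f, a subunit of the V1 rotor, by 0.75 (adjusted p = 0.0291) and Ctsh by 0.65 (adjusted p = 0.0494). Without FPC-LIPA 36, 37 and 39 these values were 0.54 (adjusted p = 0.112), 0.26 (adjusted p = 0.316) and 0.16 (adjusted p = 0.553). Each of these calls was also lost without FPC-LIPA 36, without FPC-LIPA 37 or without any single one of FPC-GFP 11, 12, 13, 16 and 20, with log2 fold changes of 0.59 to 1.08 for Ctsc, 0.59 to 0.84 for Atp6v1f and 0.48 to 0.75 for Ctsh over the libraries left out in turn; those of Atp6v1f and Ctsh were lost without FPC-LIPA 39 and that of Ctsh without FPC-GFP 19.

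Gaa and Tfe3, which had risen with the diet, fell with LIPA. Gaa was at 44.6, 74.2 and 70.9 CPM in FPC-LIPA 31, 33 and 34 and at 29.2, 23.7 and 39.4 in FPC-LIPA 36, 37 and 39, all under the lowest FPC-GFP value of 85.3, and fell by 0.99 on the log2 scale (SE 0.25, adjusted p = 0.0195). Tfe3 was at 16.9, 33.6 and 25.0 CPM in FPC-LIPA 31, 33 and 34 and at 9.22, 10.8 and 10.7 in FPC-LIPA 36, 37 and 39, and fell by 0.87 (SE 0.29, adjusted p = 0.048). FPC-LIPA 33 lay within the FPC-GFP range for Tfe3. Without FPC-LIPA 36, 37 and 39 the log2 fold changes were -0.58 for Gaa (adjusted p = 0.111) and -0.38 for Tfe3 (adjusted p = 0.404). The Tfe3 call was lost without any single FPC-GFP library and without any one of FPC-LIPA 31, 36, 37 and 39 (-1.15 to -0.72). Because the same FPC-GFP livers are the higher group in one comparison and the reference of the other, opposite signs for these genes are not independent. Tfeb had a log2 fold change of -0.52 (adjusted p = 0.159) and Mitf of 0.39 (adjusted p = 0.154).

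**Figure D3:**
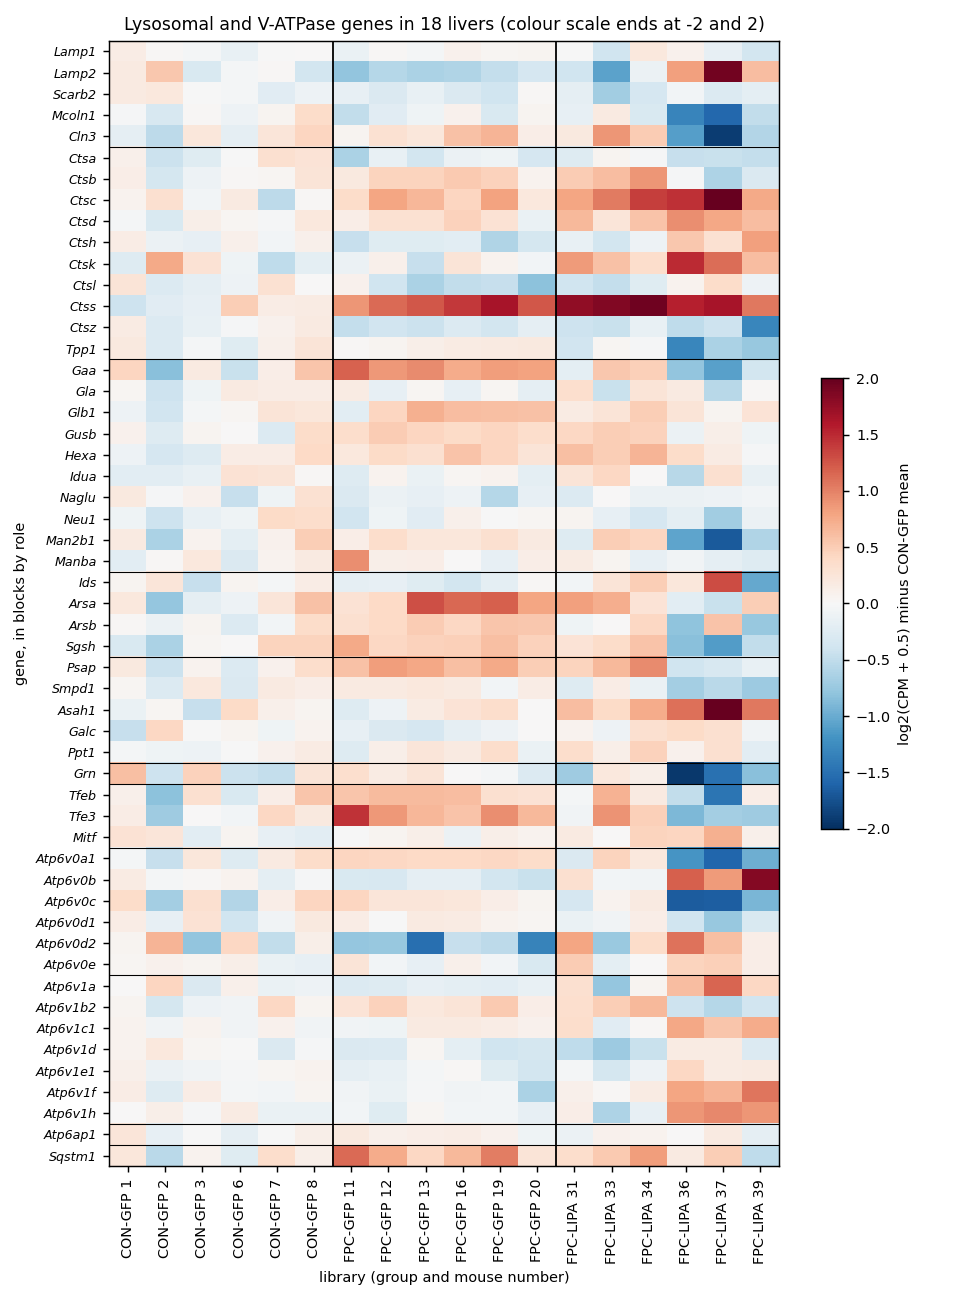
Level of each member (rows, in blocks by role) in each library (columns) as log2(CPM + 0.5) minus the mean of the 6 CON-GFP libraries, with the colour scale ending at -2 and 2. FPC-LIPA 36, 37 and 39 differ from FPC-LIPA 31, 33 and 34, with stronger red for Lamp2, Atp6v0b, Asah1 and Atp6v1h and stronger blue for Grn, Cln3, Atp6v0c and Man2b1, while Ctss is red in all FPC-fed livers.

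Members that did not pass the test also took apart FPC-LIPA 36, 37 and 39 from the others of their group. Atp6v1h, a regulatory subunit of V1, was at 103, 109 and 102 CPM there and at 60.9, 36.0 and 49.6 in FPC-LIPA 31, 33 and 34. Grn was at 48.4, 65.5 and 104 CPM there and at 113, 215 and 202 in the other 3. Atp6v0c, the main subunit of the membrane ring, was at 15, 15.1 and 25.5 CPM there and at 38.5, 50.7 and 54.8 in the other 3, so that subunits of the same pump differed in direction between the same libraries. The glycosidase gene Man2b1 and the membrane gene Cln3 were likewise lower in these 3 libraries, at 25.4 to 54.1 against 68.8 to 116 CPM and at 2.58 to 7.17 against 12.7 to 20.7 CPM.

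The log2 fold changes of the members varied with base composition. Over the 53 members, Spearman's rho between the log2 fold change and the GC content of the gene's longest transcript was 0.31 in FPC-GFP against CON-GFP and -0.55 in FPC-LIPA against FPC-GFP, and over all genes with a GC value it was 0.31 and -0.40. These are descriptions across genes, which share libraries and are not independent replicates. The median GC content was 46.2% for the 8 members that rose with LIPA, 55.8% for the 2 that fell and 50.9% for the rest. With the GC trend removed, 8 members were still higher and 2 lower in FPC-LIPA against FPC-GFP, of which 8 were among the 10 called without that correction. That fit called 20.8% of all genes. Lamp2 and Ctsc, the members of 38.7% and 41.1% GC, no longer passed. What part base composition had in the other calls was not tested.

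**Figure D4:**
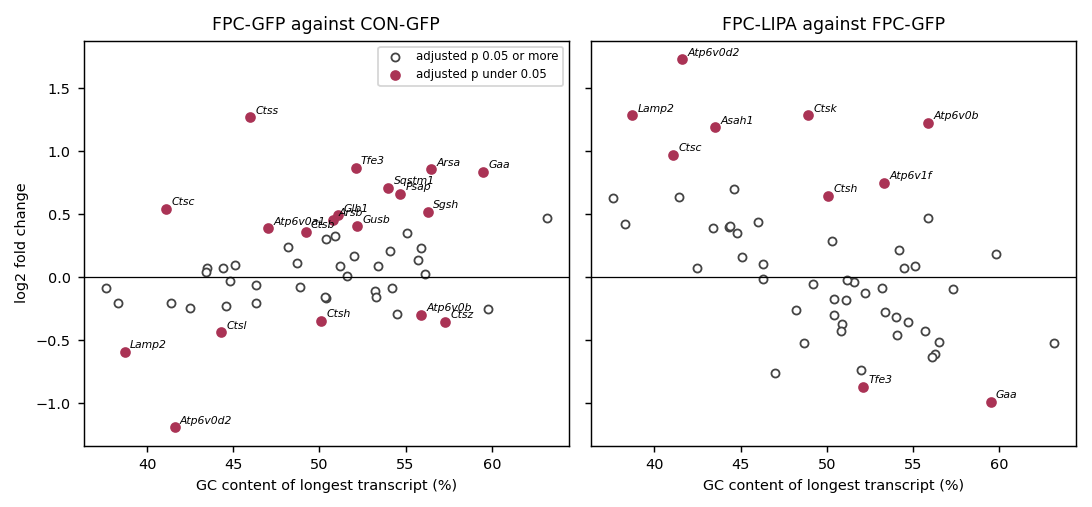
Log2 fold change of each of the 53 members against the GC content of its longest transcript (%), with the diet comparison on the left and the LIPA comparison on the right; filled points passed an adjusted p under 0.05 and are named. The points slope upward with the diet (rho 0.31) and downward with LIPA (rho -0.55).

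The third comparison set FPC-LIPA against CON-GFP, so that diet and vector both differed. Here 6 members rose and 0 fell, which is 11.3% of the members, against 14.7% and 8.20% of the 14433 genes tested. By DESeq2, 8 were higher and 1 lower, and 30.7% of all genes were called. At 2-fold, 4 were higher and 0 lower (11.8% and 3.25% of all genes), and the groups did not overlap for 3 that were higher and 0 that were lower (5.58% and 5.56% of all genes). The members that rose were 4 cathepsins, Asah1 and Atp6v0b. Without FPC-LIPA 36, 37 and 39, 8 members were higher and 1 lower, 4 of them among the 6, and 18% of all genes were called.

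Ctss rose by 1.69 (SE 0.20, adjusted p = 7.21e-05), from a median of 20.8 CPM in CON-GFP to 69.0 in FPC-LIPA, and unlike Lamp2 it was highest in FPC-LIPA 31, 33 and 34, at 72.1, 76.0 and 81.2 CPM, and lowest in FPC-LIPA 39, at 43.6. Without the 3 libraries its log2 fold change was 1.87. Its difference between FPC-LIPA and FPC-GFP was 0.44 and did not pass the test (adjusted p = 0.0792). Ctsc rose by 1.48 (SE 0.29, adjusted p = 0.00274), with 29.9 to 54.1 CPM in CON-GFP, 73.4 to 242 in FPC-LIPA and 1.09 without the 3 libraries (adjusted p = 0.00177). Ctsd, the main aspartic protease of lysosomes, rose by 0.68 (SE 0.17, adjusted p = 0.0109), from 189 to 269 CPM in CON-GFP to 277 to 443 in FPC-LIPA, without overlap, and was at 0.51 without the 3 libraries (adjusted p = 0.0335). Annotated exons of Ctsd share 34.4% of their length with Gm49369 on the same strand, so its counts are uncertain.

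Asah1 rose by 1.22 (SE 0.30, adjusted p = 0.0104), and by 0.59 without the 3 libraries (adjusted p = 0.0341). Ctsk rose by 1.16 (adjusted p = 0.0315) and Atp6v0b by 0.89 (adjusted p = 0.0432), and neither passed without the 3 libraries (0.80 and 0.09, with adjusted p of 0.187 and 0.725). The Ctsk call was also lost without any one of CON-GFP 1, 6, 7 and 8 and FPC-LIPA 36 and 37 (0.96 to 1.44), and the Atp6v0b call without any CON-GFP library or any one of FPC-LIPA 36, 37 and 39 (0.57 to 1.02). Asah1, Ctsc and Ctss passed at an adjusted p under 0.05 in all 24 alternative fits, but Asah1 did not pass under 0.01 in the main fit. The members called after the 3 libraries were left out, and not before, were Ctsb (0.68), Psap (0.69), the hexosaminidase gene Hexa (0.59), Atp6v1b2 (0.51) and Atp6v1d (-0.55).

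Members with the promoter motif were called in both directions with the diet. There, 4 of the 16 members with CACGTG rose and 2 fell, with a median log2 fold change of -0.01, and of the 30 members whose window lacked it 8 rose and 2 fell, with a median of 0.11. Over all genes tested, 12.9% rose and 10.9% fell with the diet. Whether these small sets differ from those shares, or from each other, was not tested. Of the 8 with the longer motif, 0 passed the test with the diet or in FPC-LIPA against FPC-GFP by edgeR, with log2 fold changes from -0.29 to 0.33 and from -0.37 to 0.70, and Ctsd passed in FPC-LIPA against CON-GFP. Of all genes, 14.4% rose and 6.87% fell in FPC-LIPA against FPC-GFP, and 14.7% and 8.20% in FPC-LIPA against CON-GFP. Gaa, Arsa and Atp6v0b, shown above, carry the shorter motif only, and Tfe3, Psap and Ctss have windows without it.

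Other genes of the lysosome and its neighbouring pathways were counted from lists. Over all genes tested, 12.9% rose and 10.9% fell with the diet. In FPC-LIPA against FPC-GFP, 14.4% rose and 6.87% fell, and in FPC-LIPA against CON-GFP, 14.7% rose and 8.20% fell. These shares stand beside every list below, cell markers included. Of 22 further hydrolases and cofactors tested, 5 rose and 4 fell with the diet, 5 rose and 0 fell in FPC-LIPA against FPC-GFP, and 5 rose and 2 fell in FPC-LIPA against CON-GFP. The largest rise was that of Gpnmb, a membrane glycoprotein of macrophage lysosomes placed on this list, by 3.25, 1.70 and 4.93 on the log2 scale in the 3 comparisons, and the largest fall in FPC-LIPA against CON-GFP was that of Hgsnat, which dropped by 0.83. Of 20 further membrane proteins and transporters, 6, 3 and 5 rose and 1, 3 and 4 fell in these comparisons. The tetraspanin gene Cd63 led the rises by 1.70, 1.13 and 2.80. The largest falls were those of Tmem192 with the diet, Sidt2 with LIPA and the cystine transporter gene Ctns in FPC-LIPA against CON-GFP, by 0.35, 0.77 and 0.84.

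Of the 11 genes of enzyme sorting, 1 rose with the diet (the sortilin gene Sort1, by 0.84) and 0 fell. With LIPA 1 rose and 3 fell, led by Gnptg (0.56) and the adaptor gene Ap3b1, which fell by 0.87, and in FPC-LIPA against CON-GFP only Ap3b1 changed, and it fell by 0.92. Of 6 further V-ATPase subunits tested, the stalk subunit Atp6v1g1 was the only one called, at 1.46 in FPC-LIPA against FPC-GFP and 1.11 in FPC-LIPA against CON-GFP, and 0 were called with the diet by edgeR.

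Of 31 genes of the autophagy machinery, 1 rose and 3 fell with the diet, 1 rose and 8 fell in FPC-LIPA against FPC-GFP, and 1 rose and 7 fell in FPC-LIPA against CON-GFP. The falls are 9.68%, 25.8% and 22.6% of the list, against 10.9%, 6.87% and 8.20% of all genes. Each single rise is 3.23%, against 12.9%, 14.4% and 14.7%. The leading falls were those of Atg3 (0.55), which couples lipid to LC3, Atg9a (1.12), the scramblase gene of early autophagosomes, and the receptor gene Nbr1 (0.83). The leading rises were those of Map1lc3a (0.76), Atg5 (0.79) and Map1lc3a (0.64). Of 14 genes of Ragulator, the Rag GTPases and mTORC1, 1, 2 and 1 rose and 2, 2 and 2 fell, led by Mtor (0.57), Lamtor5 (1.31) and Lamtor3 (0.69) among rises, and by Lamtor5, Rptor and Fnip2, which fell by 0.44, 0.80 and 0.77. Without FPC-LIPA 36, 37 and 39, of all these further lists 1 gene was called in FPC-LIPA against FPC-GFP, a membrane protein that was higher, and the median log2 fold change of the autophagy genes was -0.18, against -0.37 with them. In FPC-LIPA against CON-GFP without these libraries, 6 of the further membrane proteins and transporters rose and 0 fell, so that Ctns and the other falls there no longer passed. The further hydrolases then gave 4 rises and 1 fall, and the autophagy genes 1 rise and 5 falls. Without these libraries 1.22% of all genes were called in FPC-LIPA against FPC-GFP and 18% in FPC-LIPA against CON-GFP.

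Markers of macrophages also differed between the groups. All 8 Kupffer cell markers, of which the lectin gene Clec4f and Cd5l had among the highest counts, rose with the diet, and the list summed to 142 to 295 CPM in CON-GFP and 404 to 710 in FPC-GFP. In FPC-LIPA it summed to 490 to 1080, and 3 of 8 rose against FPC-GFP. Of 10 markers of monocytes and lipid-associated macrophages, led by Lyz2, 7 rose with the diet and 7 with LIPA (1 without FPC-LIPA 36, 37 and 39, where 2 of the Kupffer cell markers rose), with sums of 84.9 to 145, 162 to 434 and 481 to 944 CPM in CON-GFP, FPC-GFP and FPC-LIPA. Without those libraries the median log2 fold change with LIPA was 1.2 for this list, against 1.16 with them. For the Kupffer cell list it was 0.763, against 0.793. In the fit without them, 7 and 6 markers of these lists had an unadjusted p under 0.05. The share of all genes at that unadjusted p was not computed, so these counts have no base. At an adjusted p under 0.05, edgeR called 1.22% of all genes in that fit. No marker of these lists was at 0 in all libraries. In bulk liver, fewer cells of a type and less RNA per cell cannot be told apart. The part of macrophage content in the levels of Ctss, Ctsc, Psap and the other members was not tested.

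Lists of other cell types were read in the same way. None of the tested neutrophil (3), T and NK cell (3) or B cell (5) markers was called with the diet by edgeR, whereas 2 of 3, 1 of 4 and 2 of 6 rose in FPC-LIPA against FPC-GFP. In the same comparison edgeR called 0 markers of these lists without FPC-LIPA 36, 37 and 39, and 2, 2 and 6 had an unadjusted p under 0.05. The share of all genes at that unadjusted p was not computed. Of 8 stellate cell and fibroblast markers, 4 rose with the diet and 3 with LIPA, and of 6 sinusoidal endothelial markers 2 and 0. Of 5 cholangiocyte markers, Spp1, which is also on the macrophage list, rose with the diet and 0 were called with LIPA. Of 8 hepatocyte markers 3 fell with the diet and 2 with LIPA, and the list summed to 73900 to 110000 CPM in CON-GFP, 62900 to 89500 in FPC-GFP and 49300 to 76600 in FPC-LIPA. The haemoglobin gene Hbb-bs rose with LIPA, the only one of 3 red blood cell genes to do so. The stellate cell and hepatocyte counts with LIPA were 0 by edgeR without FPC-LIPA 36, 37 and 39 as well, with 2 and 3 markers at an unadjusted p under 0.05. For these too, no share of all genes at an unadjusted p was computed. The part of these in the members' changes was not tested.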

How the data were processed

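RNA from 18 livers was sequenced as paired reads. Per the labels and the study's methods, the authors trimmed reads with Trimmomatic, mapped them to GRCm38 with HISAT2 2.1.0 and assigned them to genes with featureCounts of Subread. The deposited values are these raw counts, with no normalization. Strand setting, annotation version and treatment of multi-mapping reads are not given in the sources used here, and both a stranded and an unstranded kit are named, so counts of overlapping genes are uncertain. The table has 23 columns of counts, of which 5 were not used here. Replicates are separate mice.

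Each comparison was fitted on its own 12 libraries with edgeR 4.0.16 in R 4.3.3 (filterByExpr, TMM, quasi-likelihood test), with Benjamini-Hochberg adjustment over all genes tested. Calls use an adjusted p under 0.05. The SE is the log2 fold change divided by the square root of F. CPM is TMM-scaled over all libraries, and TPM uses the union exon length of GENCODE M21. Libraries of one group differed by 16.7 to 648 in chi-square per degree of freedom, far above counting noise. The fit was tested on simulated data. Alternatives were other scalings, DESeq2 1.42.0, other filters and thresholds, a single fit of all 18 libraries, the subset whose sample sheet numbers lay from 55 to 68, a length trend removed, and each library left out. Removal of GC trends, and leaving out FPC-LIPA 36, 37 and 39, were chosen after seeing the data.

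The members, lists and tests were chosen with earlier results of these data known. Named by rule were, per comparison, members called at 2-fold or more (up to 8 by size, filled to 6 with other called members), the most highly counted member of each role, the MiT/TFE genes, and the largest called rise and fall of each pathway list. A gene that this rule would name is not reported here. Other members were named after their values were seen. Tables and figures were made with pandas 2.3.3 and matplotlib 3.10.9 in Python 3.11.15.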

Additional observations from a re-analysis of the deposited data

Results flagged for a closer look

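Of 159 sets of 6 livers (53 members in 3 groups), 6 held a liver far from the others of its group by Dixon's criterion. Chance alone flags about 1 in 20 sets, so these 6 are no more than chance would give. In FPC-LIPA 37, Ctsc was at 242 CPM (others 73.4 to 120) and Asah1 at 119 CPM (others 31.6 to 52.8). This is the mouse written 37b in its title. In FPC-GFP 11, Manba was at 34.0 CPM (others 15.7 to 19.4) and Tfe3 at 49.1 CPM (others 26.6 to 34.1). Smpd1 was at 40.6 CPM in FPC-GFP 19 (others 47.2 to 49.1), and Atp6v1f at 44.3 CPM in FPC-GFP 20 (others 63.1 to 68).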

How the results depend on the processing

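No called member changed sign under any alternative. In FPC-GFP against CON-GFP, the 19 called members became 6 at an adjusted p under 0.01, 2 at 2-fold, 12 with no filter on low counts, 6 with all 18 libraries in one fit, 8 with sample sheet numbers from 55 to 68 (a subset that lacks mice 1 and 2 of CON-GFP, mouse 20 of FPC-GFP and mouse 37 of FPC-LIPA), and 11 to 19 with each library left out, with 11 without CON-GFP 1 or FPC-GFP 19 and 12 without CON-GFP 6 or FPC-GFP 12. Over all genes, 23.8% were called in the main fit, 11.7% with no filter, 9.04% in one fit and 13.6% with those sheet numbers. With each library left out it was 17.1% to 24.7%. The median log2 fold change of the 53 members was 0.277 with library size alone and 0.0186 with the length trend removed. The calls lost most often with 1 library left out were those of Sgsh (10 of 12), Ctsb, Ctsl, Glb1 and Atp6v0a1 (9 each), Ctsz and Atp6v0b (6 each) and Ctsh (4), and that of Atp6v0d2 was lost without CON-GFP 2. In FPC-LIPA against FPC-GFP, the 10 became 0 at an adjusted p under 0.01 (21 at an unadjusted p under 0.05, and 8 by DESeq2 at an adjusted p under 0.01), 5 at 2-fold, 5 with library size alone, 18 by DESeq2, 17 in one fit of all libraries, and 0 without FPC-LIPA 36, 37 and 39. With sample sheet numbers from 55 to 68, edgeR called 0 members, against 0.706% of all genes. In that subset 15 members had an unadjusted p under 0.05 and DESeq2 called 6. No share of all genes was computed for these counts, or for the 21 and the 8. With each library left out the called members numbered 5 to 21, being 21, 15 and 6 when mouse 33, 34 or 39 of FPC-LIPA was left out, and 5 without FPC-LIPA 36 or 37 or FPC-GFP 11, 12, 13, 16 or 20. Over all genes, 21.2% were called in the main fit of this comparison, 9.84% with library size alone, 30.2% by DESeq2 and 31.4% in one fit. With each library left out it was 7.41% to 38%, being 38%, 27% and 8.36% without FPC-LIPA 33, 34 or 39. In FPC-LIPA against CON-GFP, the 6 became 2 at an adjusted p under 0.01, 10 in one fit of all libraries, 3 with sample sheet numbers from 55 to 68, and 4 to 10 with each library left out, with 10 without FPC-LIPA 33. Over all genes, 22.9% were called there in the main fit, 32.5% in one fit and 9.4% with those sheet numbers. With each library left out it was 16.1% to 32.4%. The causes of these shifts were not tested. No paired analysis was possible because the groups share no mouse numbers. Depth limits Ctsk and Atp6v0d2, with 12 to 185 counts per library.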
